A study of Mus musculus with 21 samples.

Results

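The regions described here are 3232 glucocorticoid receptor (GR) sites that had a peak in a single library, normoxia PBS replicate 1, and in none of the other 17 GR libraries of a mouse liver ChIP-seq study. The members were chosen by the authors' peak calls: peaks of the 18 lists sharing 1 bp or more were joined into 7398 sites, and the 3232 whose peaks all came from that library were kept. A further 683 sites of the same library were shared with at least 1 other list, and 1137 sites were found in 1 other library alone. The absence of a peak in the other lists chose the sites, so it is a description and no result. Peak lists hold no value for a site below the caller's threshold, so the tags of the other 17 libraries at these sites were not measured.

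All animals were C57BL/6J mice with no genetic change given in the labels. Mice breathed 7% oxygen for 6 h or 24 h or stayed in normoxia. An injection of 10 mg/kg dexamethasone (DEX), a synthetic glucocorticoid, or of the buffer PBS preceded sampling by 2 h. The 6 groups were 6 h hypoxia DEX, 24 h hypoxia DEX, normoxia DEX, 6 h hypoxia PBS, 24 h hypoxia PBS and normoxia PBS, with 3 libraries each, biological replicates by the series' design text. Chromatin came from pieces of whole liver, so cell types cannot be told apart, and DNA bound by a rabbit anti-GR antibody was sequenced. Age and sex are not given in the labels used here.

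GR waits in the cytoplasm with chaperones of the Hsp90 family, moves to the nucleus when it holds a glucocorticoid, and binds DNA at glucocorticoid response elements (GREs) or through other factors. In liver it is known for switching on genes of gluconeogenesis and amino acid breakdown, mostly from enhancers far from gene starts. A gene start is where RNA polymerase II begins. Starts of housekeeping genes, which all cells need, usually lie in stretches rich in CpG dinucleotides (CpG islands), lack a TATA box and carry boxes for Sp1, ETS factors, NRF1 or YY1.

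The promoters of 4 genes whose starts carried the highest tag counts among these sites and had a RefSeq promoter sequence are printed to show what kind of DNA lay there. Each window runs from 250 bases before to 50 bases after the start, is taken from RefSeq on assembly GRCm38.p6, which mm10 is based on, and is written 5′ to 3′ along the gene. Capitals mark matches to the searched motifs on either strand, and overlapping matches run together.
Erap1: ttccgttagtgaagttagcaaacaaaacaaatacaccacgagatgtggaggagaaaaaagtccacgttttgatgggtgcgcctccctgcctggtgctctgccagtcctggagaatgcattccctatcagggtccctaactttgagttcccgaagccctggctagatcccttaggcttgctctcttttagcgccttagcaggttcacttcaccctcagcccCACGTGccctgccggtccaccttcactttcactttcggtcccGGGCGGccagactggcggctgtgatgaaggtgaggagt
Btaf1: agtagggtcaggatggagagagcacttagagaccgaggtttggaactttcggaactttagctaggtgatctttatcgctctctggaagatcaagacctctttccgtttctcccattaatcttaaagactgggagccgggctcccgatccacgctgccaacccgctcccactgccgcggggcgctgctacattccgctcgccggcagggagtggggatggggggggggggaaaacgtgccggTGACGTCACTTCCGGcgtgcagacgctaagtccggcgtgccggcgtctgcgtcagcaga
Poc1b: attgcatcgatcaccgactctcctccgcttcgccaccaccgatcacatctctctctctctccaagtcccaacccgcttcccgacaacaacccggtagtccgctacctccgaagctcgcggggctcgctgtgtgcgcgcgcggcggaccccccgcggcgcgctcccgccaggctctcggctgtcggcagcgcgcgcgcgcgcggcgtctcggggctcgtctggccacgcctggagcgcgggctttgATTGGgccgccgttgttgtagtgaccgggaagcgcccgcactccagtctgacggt
Qrich1: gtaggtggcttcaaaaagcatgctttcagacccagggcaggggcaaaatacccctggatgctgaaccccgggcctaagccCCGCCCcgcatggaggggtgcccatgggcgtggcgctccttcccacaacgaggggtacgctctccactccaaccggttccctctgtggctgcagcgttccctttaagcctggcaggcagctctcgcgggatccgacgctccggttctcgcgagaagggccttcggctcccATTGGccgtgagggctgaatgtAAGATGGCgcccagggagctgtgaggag
The Erap1 window is chr13:74639603-74639902 on the plus strand, and its capitals are an E-box (CACGTG) and an Sp1 box (GGGCGG, here on the plus strand). The Btaf1 window, chr19:36925829-36926128 on the plus strand, has a cAMP element (TGACGTCA) next to an ETS match (CCGGAAG on the minus strand). The Poc1b window, chr10:99106832-99107131 on the plus strand, has a CCAAT box on the minus strand, 44 CpG dinucleotides and a GC content of 69.7%. The Qrich1 window, chr9:108516837-108517136 on the plus strand, has an Sp1 box, a CCAAT box and a YY1 match (AAGATGGC). None of the 4 windows held the full GRE or the core GRE hexamer TGTTCT. The full GRE was searched as an exact string, which 2 of all 21263 RefSeq windows held, so its absence here says little. A match is a string of letters and no measurement of binding.

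Normoxia PBS replicate 1 stood apart from the other lists in several ways at once. It had 43645787 tags, against 5772670 to 16500568 in the other 17 libraries, and 3915 peaks, against 78 to 3659. Its peaks were called 280 bp wide with up to 2 tags counted per base, against 178 to 196 bp and 1 tag per base. Depth, width and cap differ in the same single library and cannot be told apart.

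The 3232 sites were weak. Their normalized tag counts, which the authors' peak caller scaled to 10000000 tags per library, ran between 10.1 and 41.9 with a median of 13.3 (quartiles 12.4 and 14.9), against a median of 17.4 and a range of 9.85 to 2223.1 at the 683 shared sites of the same library. In all, 3159 sites (97.7%) had under 20 normalized tags. In the other 17 lists the weakest peak had between 29.7 and 83.2 normalized tags, and at most 2 of the 3232 sites reached the weakest peak of any of those lists. The lowest score in every list was 50, and the score is not scaled to depth. As a number of tags, 50 would be 11.5 normalized tags in normoxia PBS replicate 1 and 30.3 to 86.6 in the other libraries; the score is not the tag count itself, and some peaks lay below those values.

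**Figure D1:**
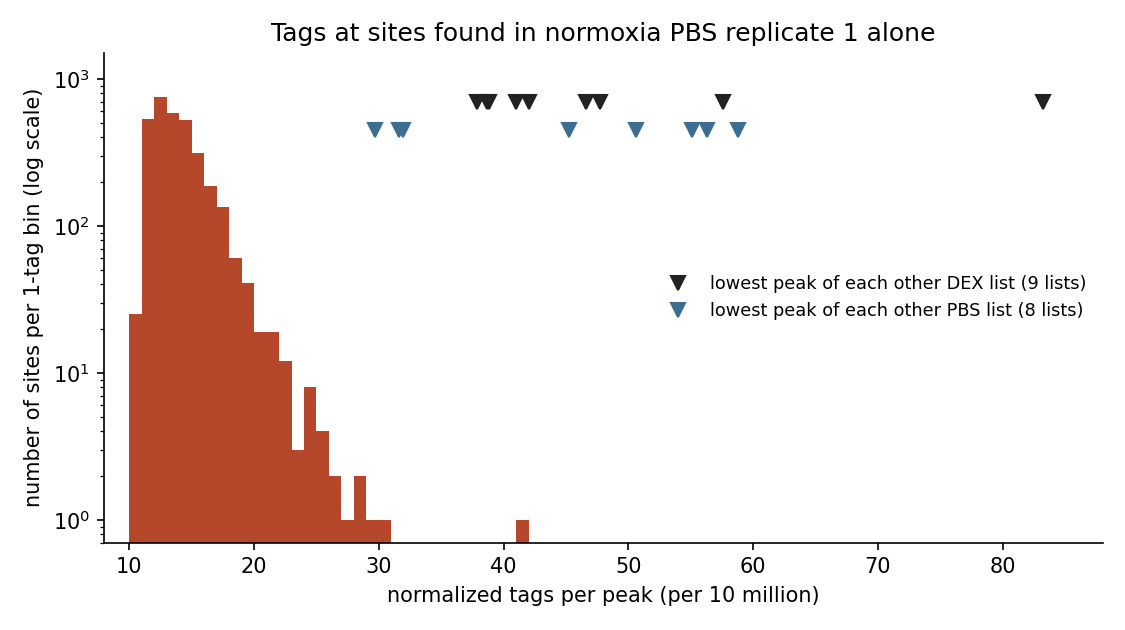
Number of sites found in normoxia PBS replicate 1 alone (bars, log scale) by normalized tag count (per 10000000 tags), with triangles at the weakest peak of each of the other 9 DEX and 8 PBS lists. Nearly all sites lie under 20 tags, and the weakest peaks of the other lists lie between 29.7 and 83.2.

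Fold over input, a ratio the authors' peak caller gave each peak, had a median of 6.84 (quartiles 5.21 and 10.1, range 4.04 to 59.05) and fold over the surrounding 10 kb a median of 6.25. The input of the normoxia mice held a median of 3 tags at these sites, and 648 sites (20.0%) had 1 tag or fewer. A count of 3 has an exact 95% Poisson interval of 0.619 to 8.77, so the fold of a single site is coarse. The caller's own measure of stacks of identical reads is the ratio of expected to observed distinct tag positions. Its median was 0.94 and its highest value 1.58 at these sites. The caller had already removed 3 putative peaks of this library as too clonal, so values under its limit of 2 were set by that filter. The nearest site of any other kind lay a median of 168243 bp away, and 37 of the 3232 sites (1.14%) had one within 1 kb. At the edge of the rule stood 63 sites that exactly 1 other list shared, with normalized tag counts of 10.8 to 51.3 and a median of 14.2. The weakest of the 3232 were at Plagl2 (10.1 tags), near Olfr323 (10.1 tags) and at Rabep1 (10.3 tags), and the strongest of the 63 lay 49104 bp from the start of Aasdhppt (51.3 tags).

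The sites sat at gene starts, most of them a short way inside the gene. Of the 3232 sites, 2656 (82.2%, Wilson 95% interval 80.8 to 83.5) had their centre within 1 kb of the start of a protein-coding gene, against 98 of 683 (14.3%, 11.9 to 17.2) of the shared sites of the same library and 103 of 1137 (9.06%, 7.53 to 10.9) of the sites of 1 other library alone. For 4408 of the 21900 genes, which lacked a RefSeq start, either end of the gene span counted as the start. With RefSeq starts alone the share was 2231 of 3232 (69.0%), against 326 of the other 4166 sites (7.8%). The median distance to a start was 217 bp at these sites and 16180 bp at the other 4166 sites. These intervals cover counting error only, and since the sites come from 1 animal's library no test of the difference was made.

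**Figure D2:**
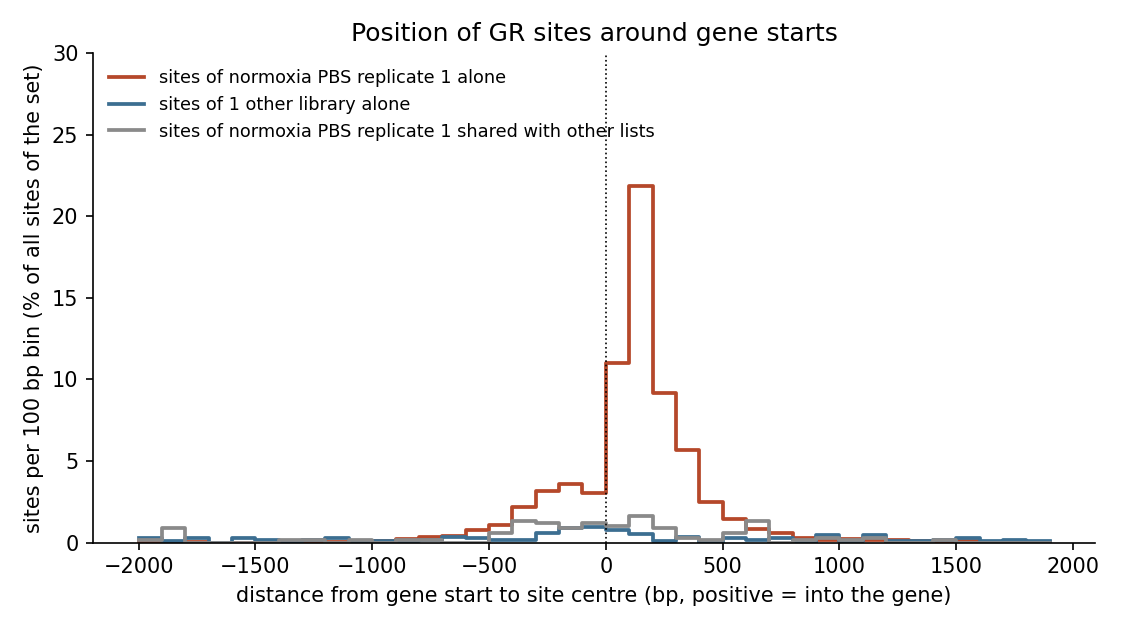
Percent of the sites of each set in 100 bp bins of distance between the nearest gene start and the site centre (positive is into the gene), for sites of normoxia PBS replicate 1 alone, sites of 1 other library alone and shared sites of the same library; starts with a known strand only. The highest bin of the first set, 100 to 200 bp into the gene, holds 21.8% of its sites, and no bin of the set of 1 other library alone reaches 1%.

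Strand gave a direction. Among the 2209 sites within 1 kb of a start with a known strand, 1728 (78.2%) lay downstream of the start, against 139 of 325 (42.8%) among the other sites. The median position was 131 bp into the gene (quartiles 38 and 230 bp), against 65 bp before the start at the other sites. The stretch 100 to 200 bp into the gene alone held 706 of the 3232 sites. Among genes with a RefSeq start alone, 84 of 3232 sites (2.6%) lay within 1 kb of a gene's far end, against 104 of the other 4166 sites (2.5%). Of these, 26 (0.805% of the 3232 sites) were near no start, against 94 (2.26%) of the other sites. Of the 3232 sites, 368 (11.4%) lay within 1 kb of the starts of 2 or more genes, and 280 (8.66%) near starts of genes on opposite strands. An example is the site between Psmb9 and Tap1 on chromosome 17 (21.1 tags), genes of an immunoproteasome subunit and a peptide transporter. Another is the site between Dtx3l and Parp9 on chromosome 16 (18.3 tags), genes of a ubiquitin ligase and its partner. The site on chromosome 2 at 26910742 to 26911022 (mm10, 18.6 tags) lay at both Rpl7a, a ribosomal protein gene, and Med22, a Mediator subunit gene.

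Among the 21900 protein-coding genes, 2910 (13.3%) had one of these sites within 1 kb of the start (13.8% of the 17492 genes with a RefSeq promoter), and 328 (1.5%) had there a site that 2 or more libraries detected. Both kinds of site were at 25 genes, which is 0.859% of the first set and 7.62% of the second. The rule left out peaks that overlapped another list, which limits how many genes can have both. Genes with a site were longer, with a median span of 28873 bp against 15567 bp in genes with none. The 26 gene lists below were chosen with earlier results of these data known and are described by their counts beside the 13.3% of all genes. That share includes families with no site, such as 1106 olfactory receptor genes. Among promoter windows with 30 or more CpG dinucleotides, 28.5% belonged to a gene with a site. How far CpG content goes with the shares of the lists was not tested.

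**Figure D3:**
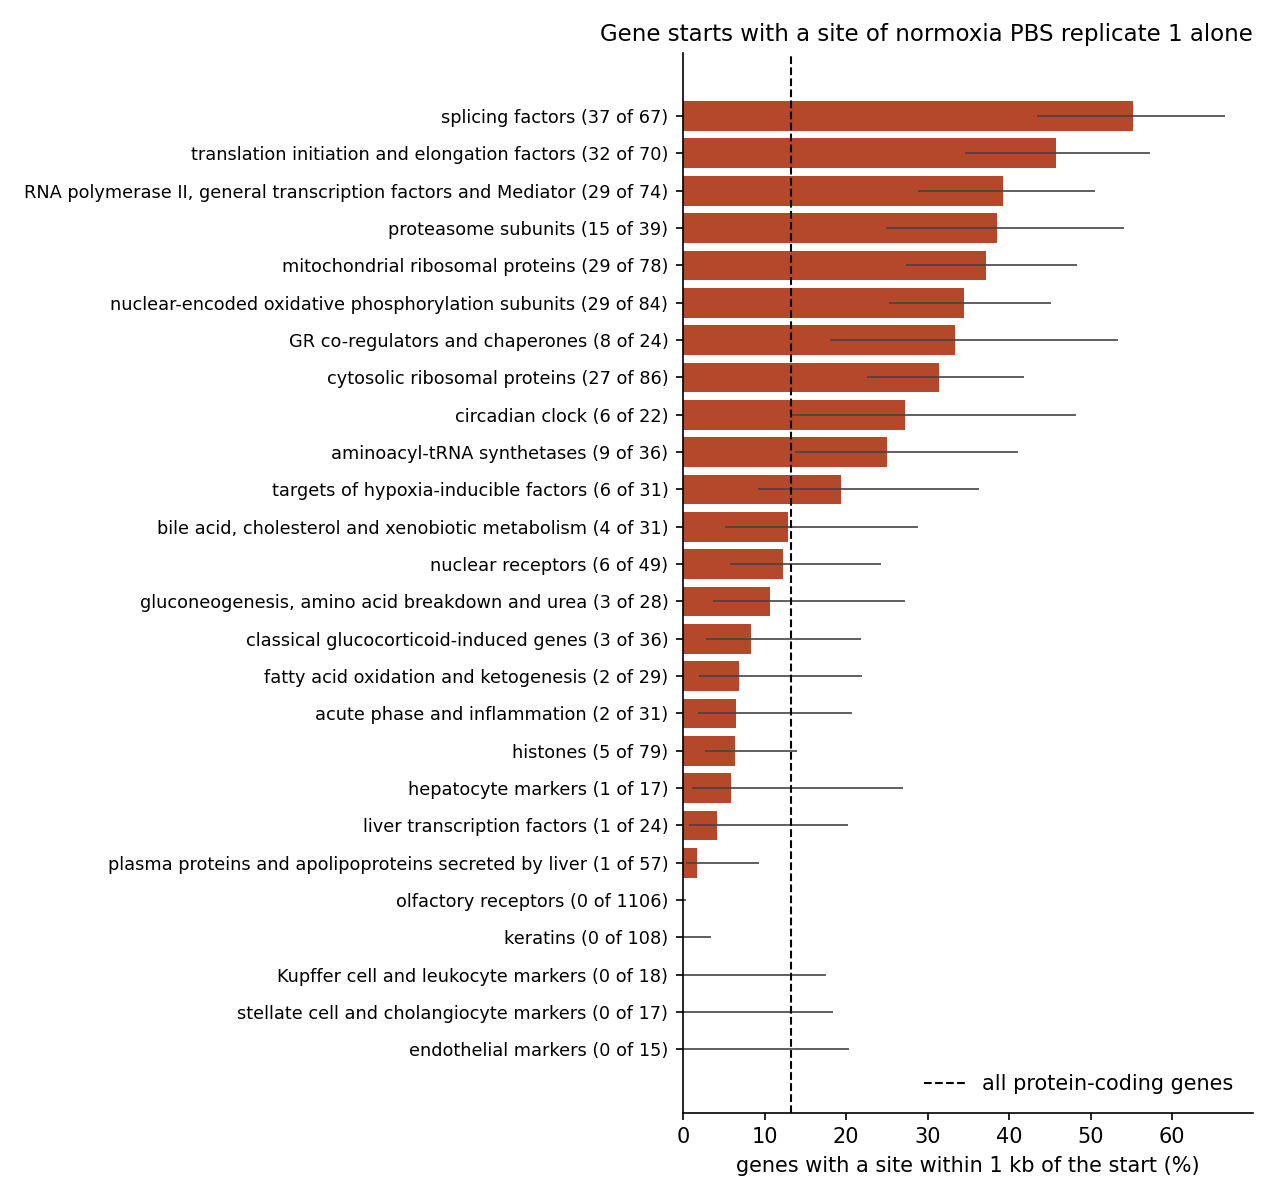
Percent of genes with a site of normoxia PBS replicate 1 alone within 1 kb of the start, for 26 gene lists (bars, with Wilson 95% intervals as lines and the counts in brackets) and for all protein-coding genes (dashed line, 13.3%). Lists of RNA and protein synthesis lie above the line and lists of liver-secreted proteins, keratins and olfactory receptors below it.

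Among the 26 lists, splicing factors had the highest share. Of 67 genes with symbols of spliceosome, Srsf and Hnrnp proteins, 37 (55.2%) had a site at the start, with normalized tag counts of 11 to 18.8. The highest were at Snrpd1 (18.8 tags) and Snrpf (17.9 tags), core proteins of the spliceosome's small nuclear particles, Hnrnpa0 (18.3 tags), an RNA-binding protein, and Srsf3 (18.1 tags), a serine- and arginine-rich splicing regulator. A single one of the 67 genes had at its start a site that 2 or more libraries detected.

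Lists of transcription and translation were also above the 13.3% of all genes. Of 70 genes with symbols of the Eif and Eef families, 32 (45.7%) had a site. These are translation initiation and elongation factors and some enzymes that modify them, such as the kinases Eif2ak1 and Eif2ak3 and the methyltransferase Eef1akmt1. The site at Eef1a1, which carries aminoacyl-tRNA to the ribosome, had 21.8 tags, and its fold over input of 59.05 was the highest of all 3232 sites, over an input listed at 0.5 tags. Eif2b4 (18.8 tags), a subunit of the exchange factor of eIF2, and Eif3m (15.8 tags), a subunit of eIF3, were others. Of 74 genes of RNA polymerase II, general transcription factors and Mediator, 29 (39.2%) had a site, led by Med16 (21.1 tags) and Med22 (18.6 tags) of Mediator, Gtf2b (17.2 tags), which is TFIIB, and Taf3 (17 tags), a subunit of TFIID. Cytosolic ribosomal protein genes had a site in 27 of 86 (31.4%), with the most tags at Rpl5 (20.6 tags), although genes of this family have many near-identical processed copies. Aminoacyl-tRNA synthetases had one in 9 of 36 (25%), led by the accessory protein gene Aimp1 (18.3 tags).

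Genes of mitochondria and protein breakdown were also above the share of all genes. Mitochondrial ribosomal proteins had a site in 29 of 78 (37.2%), led by Mrps15 (18.8 tags) and Mrps35 (17 tags). Nuclear-encoded subunits of oxidative phosphorylation had one in 29 of 84 (34.5%), among them Ndufc1 of complex I (17.9 tags), Uqcrc1 of complex III (16.7 tags) and Atp5a1 and Atp5pb of ATP synthase (18.6 and 16.5 tags). Proteasome subunits had one in 15 of 39 (38.5%), led by Psmd3 of the regulatory cap and the immunoproteasome subunit Psmb9, both at 21.1 tags. Across the 154 symbol stems that at least 15 genes share, the highest shares were in Dennd genes (9 of 16), regulators of Rab proteins, and in Eef (8 of 15) and Gtf genes (12 of 23). Next, at the same share, were Ube genes (21 of 42), a family of ubiquitin pathway enzymes, and Atg and Kdm genes (9 of 18 each).

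Lists of genes known for glucocorticoid action or liver function had shares below the 13.3% of all genes, most of them not clearly so. Only the Wilson interval of plasma proteins and apolipoproteins (0.31% to 9.29%) lay below 13.3%, and those of the other lists in this paragraph included it. The rule left out peaks that overlapped another list, so a start with a site of 2 or more libraries was less free to hold one of these sites. How far the rule lowered these shares was not tested. Of 36 classical glucocorticoid-induced genes, 3 (8.33%) had one of these sites at the start, namely Errfi1, Cebpd and Pik3r1 at 24.5, 13.5 and 12.4 tags, while 12 (33.3%) had there a site that 2 or more libraries detected. Of 57 matched genes of plasma proteins and apolipoproteins, which hepatocytes transcribe at high levels, a single one (1.75%) had one of these sites, the complement gene Cfb (21.1 tags), while 11 (19.3%) had a site of 2 or more libraries. Acute phase and inflammation genes had one of these sites in 2 of 31 (Cebpd and Tnfaip3), while 13 (41.9%) had a site of 2 or more libraries. Gluconeogenesis, amino acid breakdown and urea cycle genes had one in 3 of 28: Gpt2 (14.0 tags), an alanine aminotransferase, Glud1 (13.1 tags), glutamate dehydrogenase, and Fbp1 (12.1 tags), fructose bisphosphatase. Fatty acid oxidation and ketogenesis genes had one in 2 of 29, the dehydrogenase gene Acadl (17.4 tags) and the electron carrier gene Etfa (15.8 tags). Bile acid, cholesterol and xenobiotic genes had one in 4 of 31, among them Insig1 (19.5 tags) and Insig2 (12.8 tags), which hold the sterol sensor in the endoplasmic reticulum, and Hmgcs1 (13.1 tags), an enzyme of cholesterol synthesis.

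Lists of regulators were mixed, and most were not clearly apart from the 13.3% of all genes. The Wilson interval of GR co-regulators and chaperones (17.97% to 53.29%) lay above 13.3%. Those of circadian clock genes (13.15% to 48.15%), targets of hypoxia-inducible factors (9.187% to 36.28%), nuclear receptors and liver transcription factors included it. GR co-regulators and chaperones had a site in 8 of 24 (33.3%), led by Stip1 (15.8 tags), which links Hsp70 to Hsp90, Hsp90aa1 (15.4 tags), Ncor1 (14.9 tags), a corepressor, and Bag1 (13.5 tags). Circadian clock genes had one in 6 of 22 (27.3%), among them both partners of the clock's activating pair, Arntl (17.4 tags) and Clock (15.6 tags), and Cry2 (11.9 tags), a repressor. Targets of hypoxia-inducible factors had one in 6 of 31 (19.4%), led by Egln1 (17.2 tags), the oxygen-sensing prolyl hydroxylase, and Eno1 (13.5 tags), a glycolytic enzyme. The library came from mice in normoxia, so no comparison of oxygen conditions was made at these genes. Nuclear receptors had one in 6 of 49 (12.2%), led by Nr2c1 (19.5 tags), and liver transcription factors in 1 of 24, the stress-response gene Atf4 (18.1 tags). Zinc finger genes with a Zfp symbol had one in 72 of 397 (18.1%).

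Few cell type markers had a site, but their lists are too short to show a shortage. The Wilson intervals of these marker lists had upper ends of 17.6% to 27.0% and all included the 13.3% of all genes. Hepatocyte markers had a site in 1 of 17, the asialoglycoprotein receptor gene Asgr2 (22.2 tags), and none of 18 Kupffer cell and leukocyte, 15 endothelial or 17 stellate cell and cholangiocyte markers had one. None of 1106 olfactory receptor genes and none of 108 keratin genes had one. Histone genes had one in 5 of 79 (6.33%), led by H1f4 (18.8 tags). Of the 154 symbol stems, 43 had no gene with a site, the largest being Olfr (1110 genes) and Vmn (355 genes). Among the 43 were also the liver families Mup (24 genes, major urinary proteins), Serpina (24 genes, serpins of plasma) and Ugt (22 genes, glucuronosyltransferases). These liver families were picked after their values were seen and are too short to show a shortage. Cyp genes (cytochromes P450) had one in 4 of 99 (4.04%). Peak lists carry no RNA level, so expression of these genes was not measured.

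The 15 gene starts with the most tags held 22.7 to 27.5 normalized tags. The highest was at Erap1 on chromosome 13 (74639752 to 74640032, 27.5 tags, 18.65-fold over input), which encodes the peptidase that trims peptides for MHC class I; the site lay 39 bp into the gene, over the end of the window printed above. Btaf1 (26.8 tags), which removes TATA-binding protein from DNA, had a site 138 bp into the gene at 5.19-fold over 7 input tags. Poc1b (26.6 tags), a centriole protein gene, had one 127 bp before its start. Qrich1 had 25.9 tags, and Rack1, a scaffold on the small ribosomal subunit, 25.2 tags at 34.19-fold over 1 input tag. Further down were Ankfy1 (24.7 tags), an endosomal Rab5 effector, Errfi1 (24.5 tags), an inhibitor of the EGF receptor, Tmco1 (24.5 tags), Borcs7 (24.3 tags), Fgfbp3 (24.1 tags), Magohb (23.8 tags), a protein of the exon junction complex, Ctnna3 (23.6 tags), Cdk7 (22.9 tags), the kinase of TFIIH, and Ddx60 (22.7 tags), an interferon-induced helicase. Magohb had the lowest fold of the 15, 4.04 over 8 input tags. The 15 sites lay 39 to 438 bp from their starts.

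The remaining 576 sites (17.8%) lay farther than 1 kb from a protein-coding start. Of these, 282 lay inside the span of a protein-coding gene, 88 within 1 kb of the start of a lncRNA gene and 19 within 1 kb of a tRNA gene, while 208 were outside protein-coding spans and near no start of the 6 other gene types searched. Their tags (median 13.3) and fold over input (median 6.53) were close to the medians of 13.3 tags and 7.04-fold at the sites near starts. The single highest site of all, 41.9 tags on chromosome 2, lay 5483 bp before the olfactory receptor gene Olfr1274, with the most input tags of any of the 3232 sites, 11. The next had 30.7 tags on chromosome Y, 57736 bp from Gm52481, with 9 input tags and a fold of 4.63. Sites far from starts also lay near D430019H16Rik (29.3 tags), Slc22a5 (28.6 tags), Tmcc1 (28.4 tags), Gprc5c (25 tags), Dip2c (24.5 tags) and Ccl28 (24.3 tags). Most genes that were nearest to a site had 1 (2836 genes), 174 had 2, 13 had 3 and 1 had 4. That one was Nfia, a transcription factor gene, whose 4 sites lay 170146 to 195317 bp from its start at 12.4 to 22.5 tags. Among the genes with 3 were Acbd3, Ccnl1, Cdkn2c and Eno1.

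Promoters with a site had more CpG dinucleotides and more Sp1, ETS, NRF1 and YY1 boxes than other promoters, as counts of letters. The 2784 RefSeq promoter windows of genes with a site had a median of 25 CpG dinucleotides and 63.7% GC, against 10 and 55.3% in the 18479 windows of genes without. The share of windows whose gene had a site was 0.53% with 0 to 4 CpG dinucleotides and 28.5% with 30 or more, and it was higher at each step between. The Sp1 box GGGCGG was in 70.9% of windows of genes with a site, 42.5% of those without and 46.2% of all. The ETS motif CCGGAAG was in 25.3%, 9.5% and 11.6%, the NRF1 motif GCGCATGC in 7.0%, 2.99% and 3.52%, and the YY1 motif AAGATGGC in 6.54%, 2.53% and 3.05% of the same 3 sets. The TATA box TATAAA was in 5.39%, 13.7% and 12.6%. The core GRE hexamer TGTTCT was in 10.6%, 17.1% and 16.2%, and the full GRE in none of the 2784 windows and in 2 of all 21263. An exact string that is this rare in all windows cannot tell the sets apart, so its absence from the 2784 says little. The CCAAT box was in 34.2%, 38.8% and 38.2%, the E-box CACGTG in 10.2%, 7.48% and 7.84%, and the cAMP element TGACGTCA in 4.06%, 1.96% and 2.23%. Both strands were searched; base composition differs between the sets, and its part in the motif shares was not tested. The windows end 50 bp into the gene, while the median site lay 131 bp into it, so they hold the start and not the whole of each site.

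**Figure D4:**
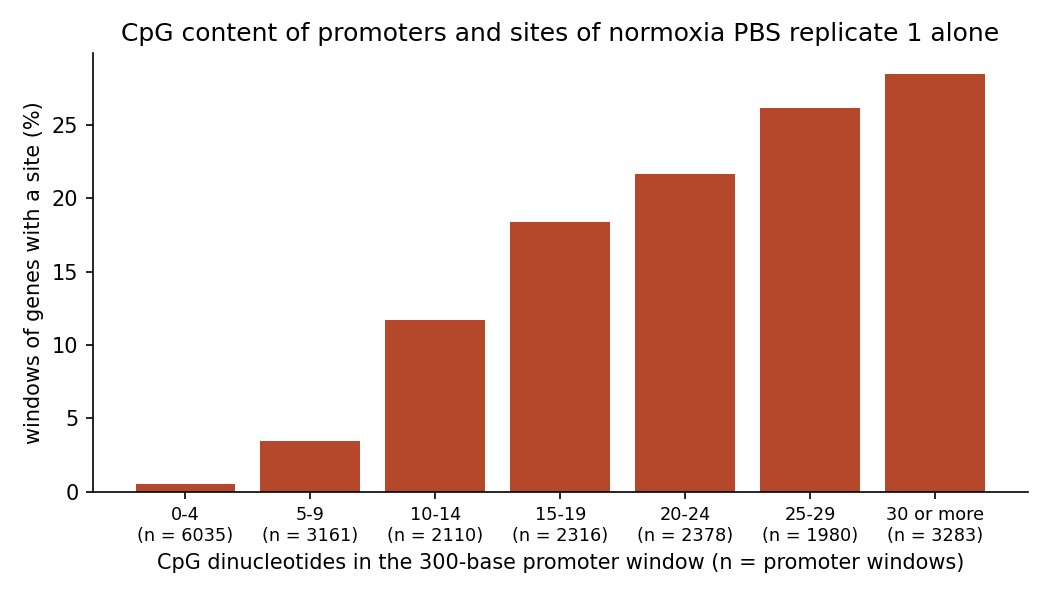
Percent of RefSeq promoter windows (300 bases around the start) whose gene had a site of normoxia PBS replicate 1 alone, by the number of CpG dinucleotides in the window; n gives the windows in each bin. The share is 0.53% in the lowest bin and 28.5% in the highest.

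Genes on chromosome X rarely had a site, 19 of 966 (1.97%, Wilson 95% interval 1.26 to 3.05), against 2891 of 20665 autosomal genes (14.0%, 13.5 to 14.5). Autosomes ran between 7.49% and 18.6%. By another measure, the share of a list's peaks that lay on X, the other 17 libraries had 0% to 1.17% and normoxia PBS replicate 1 had 0.536%. X holds 966 of the 21900 protein-coding genes.

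Within normoxia PBS replicate 1 the share of peaks near a start was lowest among the strongest peaks. Ranked by tags, the strongest 10% of peaks (19 to 2223.1 tags) had 114 of 392 near a start (29.1%), the next 10% had 65.7% near one, and the weakest 10% (9.85 to 11.7 tags) had 77.8%. The other 17 lists, which did not supply these sites, were used to ask whether weaker peaks lie near gene starts more often there too. Of the 25% of a list's peaks with the lowest scores, 10.8% ± 3.78 lay within 1 kb of a start, against 8.21% ± 2.93 of the 25% with the highest scores (SD, n = 17 libraries). The difference was 2.56 percentage points ± 5.44 (SD, n = 17), with the weak peaks higher in 13 libraries, lower in 3 and equal in 1, and it did not pass the threshold (two-sided permutation test with sign flips, p = 0.0707). It changed with 1 short list: without 24 h hypoxia PBS replicate 3, which had 78 peaks, the difference was 3.37 points (permutation test, p = 0.00269). Ranked by fold over input instead of score it was 5.69 points (permutation p = 4e-05), and with starts of all gene types in place of protein-coding ones it was 0.197 points (permutation p = 0.903). The DEX libraries differed by 1.51 points ± 1.20 (SD, n = 9, higher in 8) and the PBS libraries by 3.72 points ± 7.93 (SD, n = 8, higher in 5).

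A larger share of peaks near starts in deeper libraries was not detectable among those 17. The share ran between 8.28% and 11.8% in the 9 DEX libraries and between 5.52% and 11.7% in the 8 other PBS libraries, against 70.3% in normoxia PBS replicate 1. The correlation of the share with log2 total tags had a Pearson r of 0.585 (exact permutation p = 0.0976, adjusted p = 0.154) and a Spearman rho of 0.417 (exact p = 0.27, adjusted p = 0.27) in DEX libraries. In PBS libraries r was 0.605 (exact permutation p = 0.116, adjusted p = 0.154) and rho 0.69 (exact p = 0.0694, adjusted p = 0.154). Without the 2 libraries farthest from the median depth, r was 0.102 in DEX (n = 7) and 0.0979 in PBS libraries (n = 6). Leaving them out also narrows the range of depth, so it cannot show whether the values rest on those libraries. Without 6 h hypoxia PBS replicate 2, in contrast, r was 0.835 and rho 0.893 in PBS libraries (exact permutation, adjusted p = 0.0246 each). No library lay between 16500568 and 43645787 tags.

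**Figure D5:**
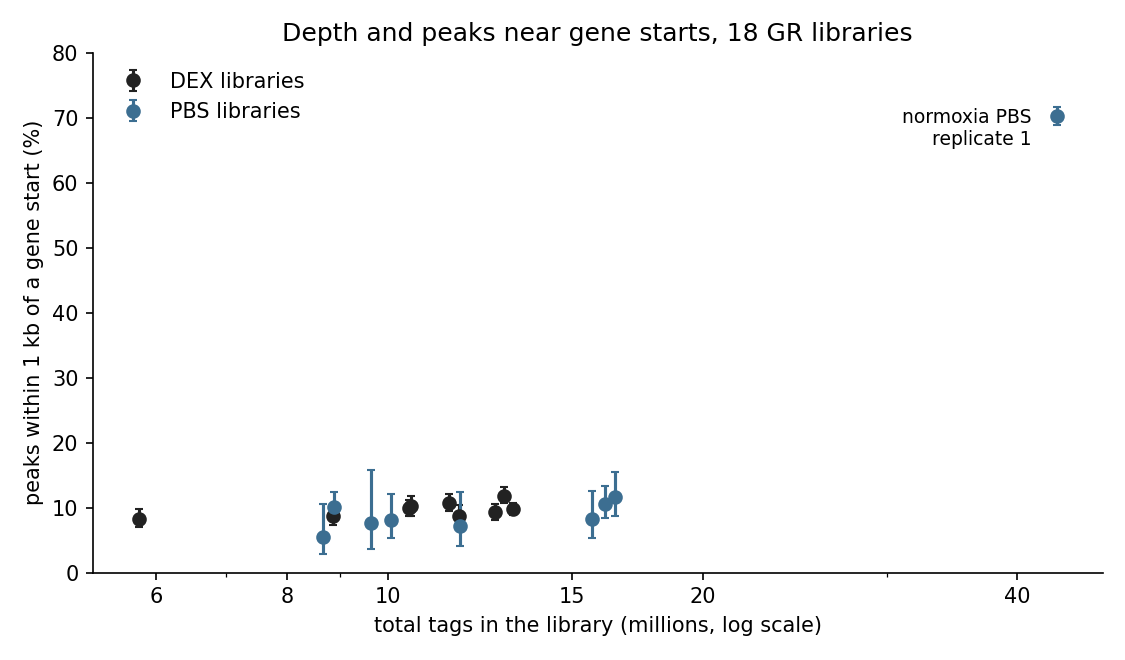
Percent of each library's peaks within 1 kb of a gene start (points, with Wilson 95% intervals as lines) against its total tags (in units of 1000000 tags, log scale), for 9 DEX and 9 PBS libraries. The other 17 libraries lie between 5.52% and 11.8%, and normoxia PBS replicate 1, the deepest, lies at 70.3%.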

How the data were processed

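GR ChIP-seq peak lists of 18 mouse liver libraries were used; the 3 inputs entered only through the peak caller's values. The submitters' processing notes name Trimmomatic, BWA 0.7.17, SAMtools 1.10 and the build mm10. Peaks were called with HOMER (version not given in the sources used here) in each library alone against the input of its oxygen condition, with a tag threshold of 50, 4-fold over input and over the surrounding 10 kb and a Poisson p-value of 1e-04, per the file headers.

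The normalized tag count is a deposited signal, scaled by the authors' peak caller to 10000000 tags per library. Input tags are also a deposited signal, in whole tags at 3062 of the 3232 sites and listed at 0.5 at 170. The deposited score of a peak is the authors' unscaled tag score. The deposited fold over input, over the surroundings and under the expected tag positions is a ratio per peak. The deposited p-value of a peak and the focus ratio, a deposited fraction, support no result here. Score, tags and fold only describe or rank peaks within a list.

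Depth was 5772670 to 43645787 tags. Wilson and Poisson intervals are 95% intervals for counting error only, and reads without molecular identifiers are not independent molecules.

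Peaks overlapping by 1 bp were merged across lists. Gene starts were the start sites of RefSeq promoters (GRCm38.p6) for 17492 of 21900 protein-coding genes (79.9%) and either end of the span for the other 4408. A site was near a start within 1 kb of its centre. Named are the 15 sites with the most tags near starts, the 8 elsewhere, the 5 genes with the most sites and up to 4 genes with the most tags per list, except a few that are not reported here; the symbol stems and the examples of shared starts were chosen after their values were seen. Lists of splicing, translation, transcription, ribosome, proteasome and respiratory chain genes were matched by symbol pattern and so hold some relatives. The members and all gene lists were chosen with earlier results of these data known.

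The 25% of peaks with the lowest and with the highest scores were compared over libraries by 100000 sign flips, and correlations by exact permutation with Benjamini-Hochberg adjustment over 4 values, at a threshold of 0.05. The code was tested on simulated peaks. Python 3.11.15, pandas 2.3.3, NumPy 2.4.6 and SciPy 1.17.1 were used. Alternatives were other overlaps, peak cut-offs and widths, start windows of 500 bp and 2 kb, all gene types, other rankings, and lists left out in turn. The choice of gene starts and the removal of lists under 100 peaks were added after seeing the data.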

Additional observations from a re-analysis of the deposited data

Results flagged for a closer look

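Normoxia PBS replicate 1 stood far from the other 8 PBS libraries in 4 measures, by the gap to its nearest neighbour over the range of the group. It had 43645787 tags, 3915 peaks, a peak size of 280 bp and 70.3% of its peaks within 1 kb of a gene start. Among the 9 DEX libraries, 6 h hypoxia DEX replicate 2 stood apart in its weakest peak, at 83.2 normalized tags, and it was the shallowest library, at 5772670 tags. Chance alone sets a library apart in about 1 in 20 groups for each measure checked, and 6 measures were checked in DEX and in PBS libraries. That rate does not apply to normoxia PBS replicate 1, which was singled out with earlier results of these data known.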

How the results depend on the processing

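The number of sites stayed within 1.5 times of 3232 under joined, larger-overlap and narrowed peaks and was 3232 to 3269 with any 1 other list left out; with a score of at least 100 in every list it was 42, and with a fold over input of at least 8 it was 1358. The share near starts was 81.3% to 82.2% with 1 list left out. It moved to 57.1% at a score of 100, 83.8% at a fold of 8, 75.2% within 500 bp, 84.5% within 2 kb and 85.8% with all gene types. With starts of the promoter table alone it was 69.0%, and with both span ends for every gene 74.9%. The 2910 genes became 25 at a score of 100. The weak minus strong difference (2.56 points, p = 0.0707) was 1.91 to 3.37 points with 1 list left out (permutation p = 0.00269 to 0.143). It passed the threshold at 3.05 points within 500 bp, 2.26 points between the lower and upper 50% of each list, 5.69 points ranked by fold, and 3.37 points over lists of at least 100 peaks. It did not within 2 kb (4.09 points, permutation p = 0.0516), and with all gene types it was 0.197 points (permutation p = 0.903).

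The correlations with depth reversed among the 75 highest scoring peaks of every list, with r = -0.268 and rho = -0.274 in DEX and r = -0.519 and rho = -0.352 in PBS libraries. The DEX rho was -0.107 without the 2 libraries farthest in depth. With 1 library left out, r was 0.404 to 0.686 and rho 0.167 to 0.548 in DEX, and r was 0.441 to 0.835 and rho 0.536 to 0.893 in PBS libraries. The cause of these changes was not tested. No paired analysis was possible because the replicate numbers that groups share enter no result: no groups were compared. The test of weak against strong peaks pairs peaks of 1 library, not numbered replicates. The sites come from 1 animal, and sites under the thresholds of the shallower lists were not measured there.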

Other observations

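A group noticed only after the values were seen was MHC class I antigen processing and interferon-response genes, so its count supports nothing by itself. Of 48 matched genes, 18 (37.5%, Wilson 95% interval 25.2 to 51.6) had one of the 3232 sites at the start, against 13.3% of all protein-coding genes, and 6 had there a site of another kind that 2 or more libraries detected. They covered the steps of peptide supply: the immunoproteasome genes Psmb8 (17.2 tags) and Psmb9 (21.1 tags), the transporter genes Tap1 (21.1 tags) and Tap2 (15.1 tags), the peptidase gene Erap1 (27.5 tags), the chaperone gene Calr (15.8 tags), the light chain gene B2m (13.3 tags) and Nlrc5 (15.4 tags), an activator of class I genes. Interferon-response members included the RNA sensor Ifih1 (18.1 tags), Ddx60 (22.7 tags), Zc3hav1 (20.6 tags), an antiviral RNA-binding protein, Usp18 (17.9 tags), a brake on interferon signalling, and Parp14 (16.7 tags). None of the 19 genes with an Ifi symbol, many of them interferon-induced, had one of the sites. Psmb9 and Tap1 share 1 site, as do Dtx3l and Parp9, so the 18 genes stand on 16 sites.

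The 25 genes that had at their start both one of these sites and a site of 2 or more libraries included Cebpd (13.5 tags) and Errfi1 (24.5 tags), both known glucocorticoid targets, and metabolic genes such as Gpt2 (14.0 tags), Idh1 (15.4 tags), Insig2 (12.8 tags), Dlat (14.2 tags) and Gpat4 (11.5 tags). The serine protease gene Hpn (19.2 tags), the splicing gene Srsf5 (15.6 tags), the receptor gene Lifr (12.4 tags) and the superoxide dismutase gene Sod1 (14.2 tags) were others. Genes of other kinds among the 25 included Chd1l, Cnot6, Phf20, Trappc10 and Usp53. The names are examples, and no count by function was made.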
